A study of Mus musculus with 12 samples.

Results

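The endoplasmic reticulum (ER) folds the proteins that a cell secretes or places in its membranes, and the 34 genes described here encode its chaperones, folding enzymes, stress sensors, disposal machinery and entry channel. They were listed by symbol as members of the pathway, with earlier results of these data known. All 34 were found among the 53707 genes of the deposited gene table. RNA was measured in retinas of wild-type C57Bl/6J mice aged 28 days, which were freed of the sclera and pigment epithelium and kept as explants for 48 hours in medium with 5 mM or 25 mM glucose. Each concentration had 3 biological replicates, and each of these had 2 technical replicates, the first in batch 1 and the second in batch 2, which makes 12 libraries. The mice carried no genetic change at either concentration, and the age, medium and culture time were shared by both groups. No library had an osmotic control, so that glucose itself and the osmolarity of the medium cannot be told apart. The labels do not say whether a biological replicate was 1 retina, 1 animal or a pool, and p-values therefore measure only the spread between these samples.

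Proteins entering the ER meet the chaperone BiP, lectin chaperones, disulfide isomerases and prolyl isomerases, and proteins that fail to fold are returned to the cytosol and degraded. When unfolded proteins accumulate, the sensors IRE1, PERK and ATF6 start the unfolded protein response, in which IRE1 splices the Xbp1 transcript, ATF6 is cut to a transcription factor and PERK slows translation. Rod photoreceptors depend on this machinery because they renew their membrane discs, and the rhodopsin in them, throughout life.

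Several of these genes are textbook targets of the ER stress response element, the promoter sequence that ATF6 and XBP1 read, and some of their promoters are shown because this element is the feature most often named as common to them. RefSeq promoters (GRCm38.p6, 250 bases before to 50 bases after a start) were found for 29 of the 34 genes, all but Hyou1, Manf, Atf6, Derl1 and Sec61a1. The element was searched as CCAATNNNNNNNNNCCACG on both strands. It occurred in 9 of the 29 genes (31.0%), against 39 of 32851 promoters of the whole table (0.119%). The 9 were Calr, Canx, Creld2, Derl3, Dnajc3, Hsp90b1, Hspa5, Pdia6 and Syvn1. The share of members counts genes, some of which have more than 1 promoter, while that of the whole table counts promoters. The second form of the element, ATTGG and CCACG with any 1 base between them, occurred on either strand in Dnajb11 and Herpud1 and in 12 promoters in all (0.0365%), and the motif TGACGTGG occurred in Txndc5 and Txndc11 and in 222 promoters (0.676%). The ends CCAAT and CCACG of the element are common alone: 37.4% and 32.8% of all promoters hold them. The next 5 sequences run 5′ to 3′ on the strand of the gene, with the element or its second form in capitals in either orientation. Hspa5 (BiP) and Calr hold 1 element each, Hsp90b1 holds 2, Herpud1 holds the second form, and Sdf2l1, the member with the lowest p in the comparison of the glucose concentrations, holds neither.
Hspa5 promoter, chr2:34771840-34772139, plus strand: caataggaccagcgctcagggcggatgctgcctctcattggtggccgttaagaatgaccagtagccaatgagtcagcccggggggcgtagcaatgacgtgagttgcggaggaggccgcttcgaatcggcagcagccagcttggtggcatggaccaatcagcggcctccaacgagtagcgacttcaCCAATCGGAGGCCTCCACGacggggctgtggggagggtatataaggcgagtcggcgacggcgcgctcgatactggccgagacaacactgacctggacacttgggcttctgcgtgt
Hsp90b1 promoter, chr10:86705395-86705694, minus strand: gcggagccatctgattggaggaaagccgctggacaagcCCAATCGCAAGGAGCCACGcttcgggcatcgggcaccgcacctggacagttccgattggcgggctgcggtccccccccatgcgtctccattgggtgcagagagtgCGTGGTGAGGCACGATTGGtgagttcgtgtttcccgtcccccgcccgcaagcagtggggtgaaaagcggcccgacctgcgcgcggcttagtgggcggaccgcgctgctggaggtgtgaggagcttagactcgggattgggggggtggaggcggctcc
Calr promoter, chr8:84846882-84847181, minus strand: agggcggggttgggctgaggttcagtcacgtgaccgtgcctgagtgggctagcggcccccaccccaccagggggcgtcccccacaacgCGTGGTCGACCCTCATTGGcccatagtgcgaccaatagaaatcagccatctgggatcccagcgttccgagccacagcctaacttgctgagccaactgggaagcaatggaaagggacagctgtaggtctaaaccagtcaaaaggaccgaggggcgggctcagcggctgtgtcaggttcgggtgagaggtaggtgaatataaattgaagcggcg
Herpud1 promoter, chr8:94386179-94386478, plus strand: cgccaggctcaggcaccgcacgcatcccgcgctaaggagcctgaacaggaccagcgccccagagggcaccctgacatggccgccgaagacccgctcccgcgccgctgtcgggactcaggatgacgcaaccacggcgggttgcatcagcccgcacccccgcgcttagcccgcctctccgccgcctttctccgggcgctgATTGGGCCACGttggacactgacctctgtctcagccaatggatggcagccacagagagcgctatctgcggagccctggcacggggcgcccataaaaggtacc
Sdf2l1 promoter, chr16:17132334-17132633, minus strand: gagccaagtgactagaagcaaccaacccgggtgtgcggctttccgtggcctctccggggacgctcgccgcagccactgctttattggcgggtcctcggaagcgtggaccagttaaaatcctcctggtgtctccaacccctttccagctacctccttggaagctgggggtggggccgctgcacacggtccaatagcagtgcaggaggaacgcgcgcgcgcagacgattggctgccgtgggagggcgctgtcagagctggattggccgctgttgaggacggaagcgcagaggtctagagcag
A match is a match of letters only. The 9 genes with the element had a median log2 fold change (25 mM over 5 mM) of -0.57, from -1.03 to -0.15, and the 18 genes whose promoter held neither form had a median of -0.50, from -1.04 to 0.92.

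Levels are given as CPM, the estimated counts of a gene divided by the total of its library on a common scale (with TMM factors), with technical replicates summed. Differences are log2 fold changes of 25 mM over 5 mM glucose with their standard error (SE), from the edgeR quasi-likelihood test on 3 against 3 biological replicates, and the false discovery rate (FDR) is adjusted by the Benjamini-Hochberg method over the 21061 genes that passed the filter on low counts. All 34 genes passed that filter. The libraries held 17998905 to 36692484 counts at 5 mM and 14815285 to 23129541 at 25 mM glucose, and the 5 mM replicate 1 stood apart from the other replicates at 5 mM in a way that moved with the GC content of a transcript, described with its values further on. Rod marker genes summed to between 2925 and 8854 CPM over the 6 biological replicates, while markers of the retinal pigment epithelium summed to between 5.34 and 8.06 CPM.

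Most genes of the ER folding machinery lay lower in the explants at 25 mM glucose, but none passed an FDR of 0.05 when tested singly. Of the 34 genes, 32 had a log2 fold change below 0, where 50.7% of all genes tested did, and their median was -0.53 beside -0.01 for all genes. At an FDR under 0.05, 0 members were lower and 0 higher in the edgeR quasi-likelihood test, while 0.513% of all genes were called lower and 1.47% higher. At an unadjusted p under 0.05, 15 members were lower and 1 higher, against 15.5% and 13.2% of all genes. In 18 members every replicate at 25 mM lay below every replicate at 5 mM, and in 2 every replicate lay above, where this held for 15.8% and 16% of all genes. DESeq2 called 7 members lower and 1 higher at an FDR under 0.05, where it called 9.54% of all genes lower and 7.03% higher, and limma-voom called 0 and 0, where it called 0.565% and 1.42%. The newer method of edgeR (version 4) called 0 and 0, where it called 0.945% and 1.88% of all genes. Without the 5 mM replicate 1, edgeR called 12 lower and Crebrf higher, where it called 14.9% and 11.7% of all genes. With no filter beyond a count above 0, edgeR called 4 lower and 1 higher, where it called 3.47% and 2.16% of all genes. With the 12 libraries as separate samples, which counts technical replicates as if they were biological ones, it called 12 and 1, where it called 7.86% and 7.73%. With the replicate number as a block it called 1 and 0, where it called 2.78% and 1.92%, and with the block and an offset for GC content and transcript length 9 and 1, where it called 9.82% and 6.37%. Without any of the replicates other than the 5 mM replicate 1 in turn, it called 0 members, but these settings say little about the members: 4 of them called 0% of all genes, and the setting without the 25 mM replicate 3 called 0.946% lower and 1.32% higher.

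**Figure D1:**
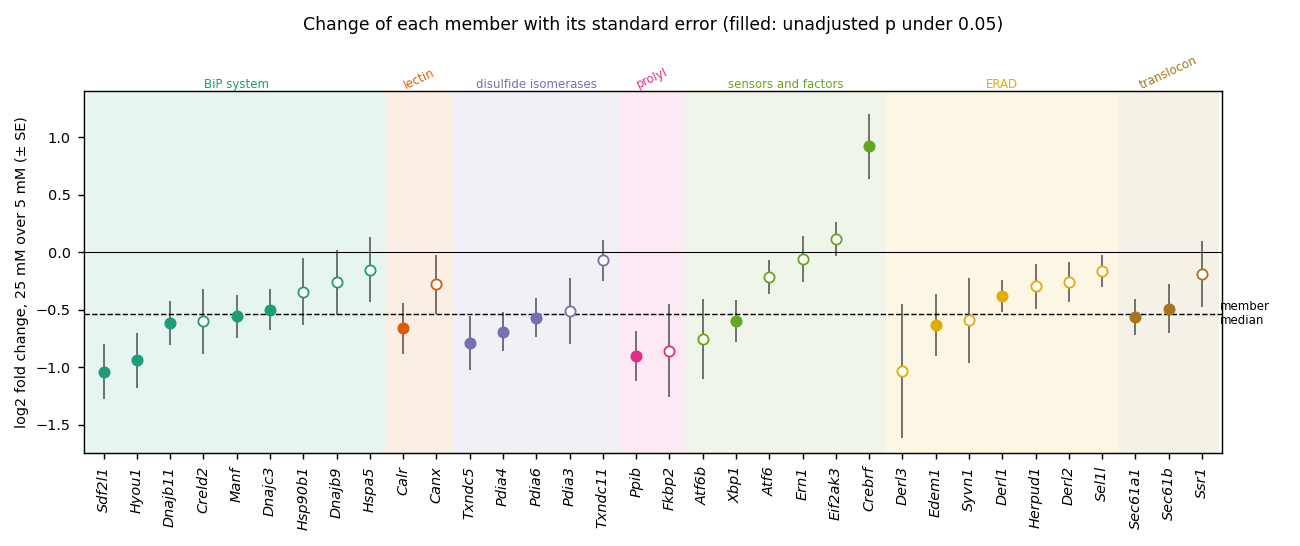
Log2 fold change (25 mM over 5 mM glucose) of the 34 genes with its standard error, grouped by role, with filled points for an unadjusted p under 0.05 and the median of the genes as a dashed line. All members lie below 0 except Crebrf at 0.92 and Eif2ak3 at 0.12, and the dashed line stands at -0.53.

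Sdf2l1, in the group of genes around BiP, had the lowest p of the 34. It encodes a small partner of the ER DnaJ proteins that keeps unfolded substrates from clumping. The Sdf2l1 level was 10.5, 12.4 and 10.7 CPM in the 3 replicates at 5 mM and 4.75, 5.34 and 6.26 CPM at 25 mM (ENSMUSG00000022769, chromosome 16 of GRCm38, 17130138 to 17132383). The groups did not overlap, and the replicates within a group lay close together. The log2 fold change was -1.04 (SE 0.24), with an FDR of 0.0602 in edgeR. It was -1.43 (FDR 0.0187) in the batch 1 libraries alone and -0.64 (FDR 0.432) in those of batch 2. With an offset for GC content and transcript length it was -0.71 (FDR 0.0921).

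Hyou1, the large HSP70-like chaperone that exchanges the nucleotide of BiP, measured 75.0, 131 and 113 CPM at 5 mM and 50.8, 48.9 and 66.7 CPM at 25 mM (ENSMUSG00000032115, chromosome 9, 44379490 to 44392369). The 5 mM replicate 1 was the lowest of its group, although still above every replicate at 25 mM. Its log2 fold change was -0.94 (SE 0.24, FDR 0.0701), and -1.14 with an FDR of 0.012 when the 5 mM replicate 1 was left out (edgeR).

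The co-chaperones followed with smaller differences. Dnajb11, a DnaJ protein that brings substrates to BiP, had 91.8, 106 and 97.5 CPM at 5 mM and 54.0, 58.2 and 80.3 CPM at 25 mM. Dnajc3, also called p58IPK and both a BiP partner and an inhibitor of PERK, had 168, 121 and 129.8 CPM at 5 mM and 87.1, 105 and 104 CPM at 25 mM. Neither gene overlapped between groups, and their log2 fold changes were -0.62 (SE 0.19) and -0.50 (SE 0.18). Manf, a secreted ER protein that protects neurons, had 95.3 to 103 CPM at 5 mM and 54.1 to 82.5 CPM at 25 mM, a log2 fold change of -0.56 (SE 0.19). Exons of Manf overlap Rbm15b on the same strand, so part of its counts may belong to that gene. Creld2, another secreted ER stress target, overlapped between groups, with a log2 fold change of -0.60 (SE 0.28, FDR 0.197 in edgeR).

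Hspa5 and Hsp90b1, the members with the highest mean TPM (a level per transcript length), showed no difference beyond the spread of the replicates. Hspa5, which encodes BiP itself, measured 1391, 897 and 966 CPM at 5 mM and 655, 1119 and 1157 CPM at 25 mM (ENSMUSG00000026864, chromosome 2, 34771970 to 34777547). The 5 mM replicate 1 was the highest of all and the 25 mM replicate 1 the lowest, and the other 4 replicates lay between 897 and 1157 CPM without separating by glucose. Within the 25 mM replicate 2, the technical replicates differed, with 622 CPM in the first and 1447 CPM in the second. That first library had the fewest counts (14815285) and the highest mitochondrial share (15.4%) of the 12 libraries. The log2 fold change of Hspa5 was -0.15 (SE 0.28, FDR 0.741 in edgeR). Hsp90b1, the ER form of HSP90, measured 1739, 923 and 992 CPM at 5 mM and 750.3, 1142 and 987 CPM at 25 mM (ENSMUSG00000020048, chromosome 10, 86690209 to 86705509). Here again replicate 1 was the extreme of both groups. The log2 fold change of Hsp90b1 was -0.34 (SE 0.29). It became 0.00 without the 5 mM replicate 1 and lay between -0.52 and -0.18 without any other replicate. With an offset for GC content and transcript length it was -0.51 (FDR 0.0762 in edgeR). Dnajb9, a DnaJ co-chaperone that regulates IRE1, had the same shape, with 119 CPM in the 5 mM replicate 1 and 57.9 to 80.9 CPM in the other 5 replicates. Over the 9 genes of the BiP system the median was -0.56, 9 lay below 0 and 5 had an unadjusted p under 0.05. Of all genes, 50.7% lay below 0 and 15.5% were lower at that p.

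**Figure D2:**
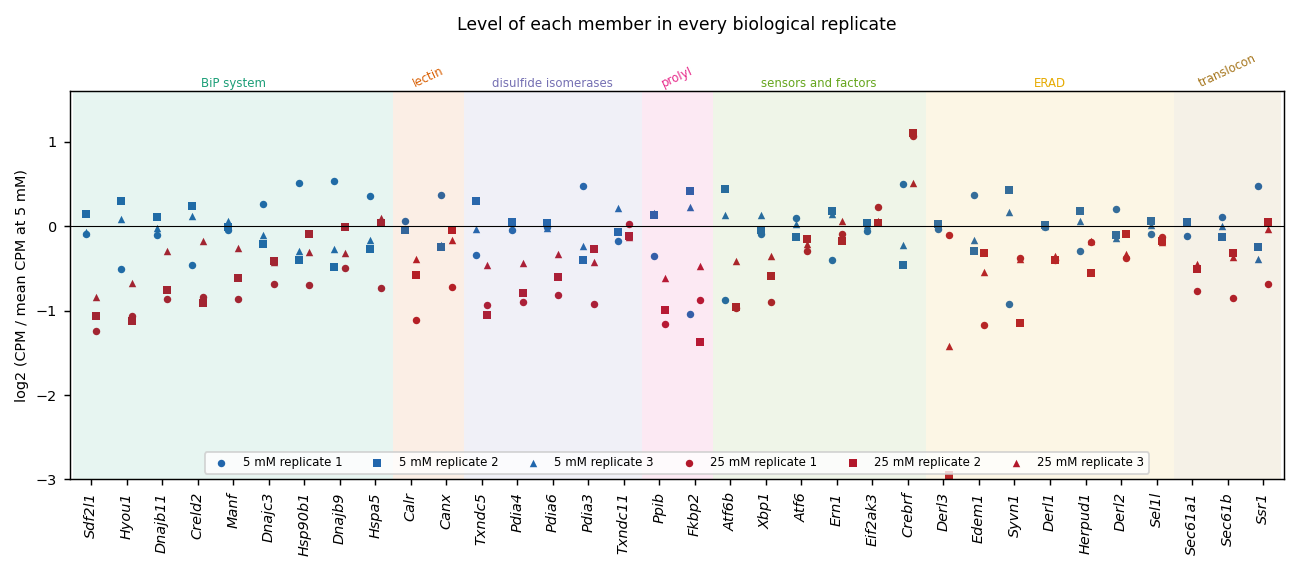
Level of each gene in the 6 biological replicates as the log2 ratio of its CPM to the mean at 5 mM, with blue for 5 mM, red for 25 mM and a marker shape for each replicate number. In Hspa5, Hsp90b1, Dnajb9, Canx, Pdia3 and Ssr1 the 5 mM replicate 1 (blue circle) stands above the other replicates, and in Fkbp2, Atf6b and Syvn1 it is the lowest at 5 mM.

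The lectin chaperones hold newly made glycoproteins until they fold. Calr (calreticulin, soluble in the ER) measured 797, 742 and 747 CPM at 5 mM and 352, 511 and 581 CPM at 25 mM. The 5 mM replicates were tight and all above the others, and the log2 fold change was -0.66 (SE 0.22, FDR 0.103 in edgeR). Canx (calnexin, its relative anchored in the membrane) measured 1150.5, 751 and 759 CPM at 5 mM and 540.1, 861 and 791 CPM at 25 mM. The groups overlapped, and the log2 fold change was -0.28 (SE 0.26).

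The disulfide isomerases form and correct the bonds between cysteines. Pdia4 had 138, 148 and 141 CPM at 5 mM and 76.6, 82.5 and 105 CPM at 25 mM (ENSMUSG00000025823, chromosome 6, 47796141 to 47813430). All 3 replicates at 25 mM were lower, and the log2 fold change was -0.69 (SE 0.17, FDR 0.0670 in edgeR). Pdia6, an isomerase that also acts on IRE1 and PERK, had 222, 229.7 and 221 CPM at 5 mM and 127, 148 and 178 CPM at 25 mM, a log2 fold change of -0.57 (SE 0.17). Its value rests on the gene table: the transcript table held only a small part of its counts (the ratio of both tables was 8.20), and the sum of its transcripts gave a log2 fold change of 0.08. Its exons also overlap Atp6v1c2 on the opposite strand, and the sources used here do not say whether counting used the strand. Txndc5 (ERp46) had 50.7 to 79.4 CPM at 5 mM and 31.0 to 47.0 CPM at 25 mM, a log2 fold change of -0.79 (SE 0.23). Pdia3 (ERp57), the isomerase that works with calnexin and calreticulin, had 1014, 548 and 615 CPM at 5 mM and 384, 604 and 540.2 CPM at 25 mM, with overlapping groups and a log2 fold change of -0.51 (SE 0.28). Txndc11 averaged 38.4 ± 5.39 CPM at 5 mM and 36.6 ± 2.31 CPM at 25 mM (SD, n = 3), with a log2 fold change of -0.07 (SE 0.18).

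The prolyl isomerases turn peptide bonds before proline, a slow step in the folding of collagen. Ppib (cyclophilin B), which acts on procollagen, measured 176, 247 and 250.5 CPM at 5 mM and 101, 113 and 147 CPM at 25 mM (ENSMUSG00000032383, chromosome 9, 66060222 to 66066623). The groups did not overlap, and the log2 fold change was -0.90 (SE 0.21, FDR 0.0643 in edgeR). Ppib was 1 of the 3 members with an unadjusted p under 0.05 in the batch 2 libraries on the lower side, where its log2 fold change was -0.65 and its FDR 0.421. Its exons overlap Snx22 on the opposite strand. Fkbp2 measured 7.33, 20.1 and 17.6 CPM at 5 mM and 8.21, 5.83 and 10.8 CPM at 25 mM, with a log2 fold change of -0.86 (SE 0.40). The 5 mM replicate 1 alone lay among the replicates at 25 mM, and without it the log2 fold change was -1.19 with an FDR of 0.023 (edgeR).

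The sensors ATF6, IRE1 and PERK had log2 fold changes between -0.22 and 0.12. Atf6 measured 145, 124 and 138 CPM at 5 mM and 110.1, 122 and 117 CPM at 25 mM, which did not overlap but nearly met, with a log2 fold change of -0.22 (SE 0.15). Ern1, the gene of IRE1, measured 34.7, 51.8 and 50.2 CPM at 5 mM and 42.9, 40.5 and 47.6 CPM at 25 mM, a log2 fold change of -0.06 (SE 0.20). Eif2ak3, the gene of PERK, measured 48.5, 51.7 and 50.9 CPM at 5 mM and 59.1, 51.8 and 52.8 CPM at 25 mM, a log2 fold change of 0.12 (SE 0.15). The groups of Ern1 overlapped, and those of Eif2ak3 nearly touched. Atf6b, a relative of ATF6 with weaker activity, had 12.1, 30.1 and 24.3 CPM at 5 mM and 11.4 to 16.7 CPM at 25 mM, with a log2 fold change of -0.75 (SE 0.35, FDR 0.193 in edgeR). It was -1.05 with an FDR of 0.0211 without the 5 mM replicate 1, and -0.12 with an FDR of 0.65 with an offset for GC content and transcript length.

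Xbp1 and Crebrf, transcription regulators of the list beside Atf6 and Atf6b, had log2 fold changes of opposite sign. Xbp1, the factor that IRE1 activates by splicing, measured 179, 185 and 209 CPM at 5 mM and 103, 127 and 149 CPM at 25 mM (ENSMUSG00000020484, chromosome 11, 5520659 to 5525893). The groups did not overlap, and its log2 fold change was -0.60 (SE 0.18, FDR 0.0927 in edgeR). Crebrf, which promotes the breakdown of the ER stress factor CREB3, measured 125, 64.0 and 75.3 CPM at 5 mM and 185, 190.3 and 126 CPM at 25 mM (ENSMUSG00000048249, chromosome 17, 26715650 to 26776635). The highest replicate at 5 mM and the lowest at 25 mM nearly met, the other replicates were far apart, and the log2 fold change was 0.92 (SE 0.28, FDR 0.0916 in edgeR). It was 0.98 in batch 1 (FDR 0.0830) and 0.97 in batch 2 (FDR 0.410). The technical replicates differed, with 133 and 245 CPM for the 25 mM replicate 1 and 272 and 146 CPM for the 25 mM replicate 2. In batch 2 the groups overlapped, with 130 CPM in the 5 mM replicate 1 and 114 CPM in the 25 mM replicate 3. The FDR of Crebrf was 0.0122 without the 5 mM replicate 1, and 0.0714 to 0.275 without any other replicate. The 6 sensors and factors had a median of -0.14, with 4 below 0, where 50.7% of all genes were.

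The genes of ER-associated degradation recognise, move and tag proteins for the proteasome. Edem1, a lectin that marks misfolded glycoproteins, had 97.9, 61.4 and 67.2 CPM at 5 mM and 33.4, 60.7 and 51.9 CPM at 25 mM, a log2 fold change of -0.63 (SE 0.27, FDR 0.165 in edgeR). Derl1, a channel-forming derlin, varied little within groups, with 97.8, 99.4 and 98.3 CPM at 5 mM and 74.7, 74.9 and 77.2 CPM at 25 mM. Its log2 fold change was -0.38 (SE 0.14), with an FDR of 0.125. Herpud1, which assembles the degradation complex, had 48.3, 67.4 and 62.0 CPM at 5 mM and 52.0, 40.4 and 52.3 CPM at 25 mM, with overlapping groups and a log2 fold change of -0.30 (SE 0.19). Sel1l, its scaffold, had 136 to 151 CPM at 5 mM and 127 to 132 CPM at 25 mM, and Syvn1, its ubiquitin ligase (HRD1), had 12.05 to 30.6 CPM and 10.3 to 17.6 CPM. The log2 fold changes of Sel1l and Syvn1 were -0.16 (SE 0.14) and -0.59 (SE 0.37). Derl2 had 56.2 to 71.5 CPM at 5 mM and 47.5 to 58.1 CPM at 25 mM, a log2 fold change of -0.26 (SE 0.17). Derl3 was barely present, at 0.415, 0.430 and 0.425 CPM at 5 mM and 0.394, 0.0547 and 0.158 CPM at 25 mM, and its log2 fold change of -1.03 had an SE of 0.58. The 7 genes had a median of -0.38, and 2 of them, Derl1 and Edem1, were lower at an unadjusted p under 0.05, where 15.5% of all genes were.

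The translocon threads new proteins into the ER. Sec61a1, its pore subunit, measured 97.8, 109 and 109.9 CPM at 5 mM and 62.2, 74.6 and 77.4 CPM at 25 mM (ENSMUSG00000030082, chromosome 6, 88503579 to 88518905). The groups were far apart relative to their spread, and the log2 fold change was -0.56 (SE 0.16, FDR 0.0784 in edgeR). Sec61b, a small subunit of the same channel, had 22.8 to 26.9 CPM at 5 mM and 13.8 to 19.95 CPM at 25 mM, a log2 fold change of -0.49 (SE 0.21). Ssr1, part of the associated TRAP complex, had 405, 246 and 223 CPM at 5 mM and 181, 301 and 286 CPM at 25 mM, with overlapping groups and a log2 fold change of -0.19 (SE 0.29).

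Per transcript length, as TPM from the transcript table (counts per base, scaled to the same total in every sample), the machinery was led by its chaperones. At 5 mM the highest levels were those of Calr with 892 ± 18.7 TPM, Hsp90b1 with 829.5 ± 278 TPM and Hspa5 with 808 ± 171 TPM (SD, n = 3). These 3 did not differ beyond their spread. Pdia3 with 537 ± 163 TPM, Canx with 527 ± 113 TPM and Ppib with 406 ± 87.5 TPM came next and also overlapped one another. At 25 mM Hspa5 stood at 789 ± 192 TPM, Hsp90b1 at 711 ± 93.9 TPM and Calr at 605 ± 133 TPM, again within the spread. The sensors were far lower, with Atf6 at 35.3 ± 1.48 TPM, Eif2ak3 at 23.9 ± 1.66 TPM and Ern1 at 15.5 ± 3.78 TPM at 5 mM, and Derl3 was the lowest with 0.748 ± 0.103 TPM. Exons of Hsp90b1 overlap Gm15344 on the same strand, and those of Pdia3, Txndc5, Txndc11, Syvn1, Derl2, Sec61a1 and Eif2ak3 overlap other genes on the opposite strand, so that part of their counts is uncertain. Pdia6 was left out of this order because of its transcript values.

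Grouped by the branch of the unfolded protein response that textbooks name for them, the genes looked alike. For the 10 usually placed under ATF6 the median log2 fold change was -0.58, with 10 below 0 and 5 at an unadjusted p under 0.05. The 11 usually placed under IRE1 and XBP1 had a median of -0.56, with 11 below 0 and 6 at an unadjusted p under 0.05. Of all genes, 50.7% were below 0 and 15.5% were lower at that p. Many genes answer to both branches, and the difference between these lists was not tested. Splicing of the Xbp1 transcript by IRE1, which removes 26 bases, was not analysed here: none of the pairs among its 4 annotated transcripts differs by that intron.

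The size of the difference was not the same in the batches. In batch 1, 31 of the 33 members with a value were below 0, with a median of -0.68, and 12 were called lower at an FDR under 0.05 (edgeR), where 10.1% of all genes were, and 0 higher, where 7.16% were. In batch 2, 23 of 33 were below 0, with a median of -0.23, and 0 were called lower or higher at that FDR, where 0% of all genes were. At an unadjusted p under 0.05 in batch 2, 3 members were lower and 1 was higher, where 6.64% and 5.07% of all genes were. In 5 members every batch 2 library at 25 mM lay below every one at 5 mM, where this held for 7.91% of all genes. Of all genes, 49.3% were below 0 in batch 1 and 52.1% in batch 2. The value of batch 1 lay below that of batch 2 in 30 of the 33 genes. The batches hold technical replicates of the same 6 biological replicates, so that they are not independent samples.

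Edem1 had the lowest p for a difference between batches. In batch 1 it measured 120.4, 73.3 and 90.4 CPM at 5 mM and 29.7, 36.9 and 38.5 CPM at 25 mM. In batch 2 it measured 64.4, 46.0 and 45.3 CPM at 5 mM and 38.5, 76.6 and 62.7 CPM at 25 mM, so that groups that were far apart in batch 1 overlapped in batch 2. Its log2 fold change was -1.44 in batch 1 (FDR 0.0107) and 0.20 in batch 2 (FDR 0.769), and the test of the difference between batches gave 1.56 with an FDR of 0.132 (edgeR). In that test 0 members passed an FDR of 0.05 and 10 had an unadjusted p under 0.05, where 0% and 16.3% of all genes did. Fkbp2 was an exception in its order, with -0.33 in batch 1 and -1.36 in batch 2. Hspa5 was -0.53 in batch 1 and 0.17 in batch 2, and Ssr1 -0.70 and 0.31.

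**Figure D3:**
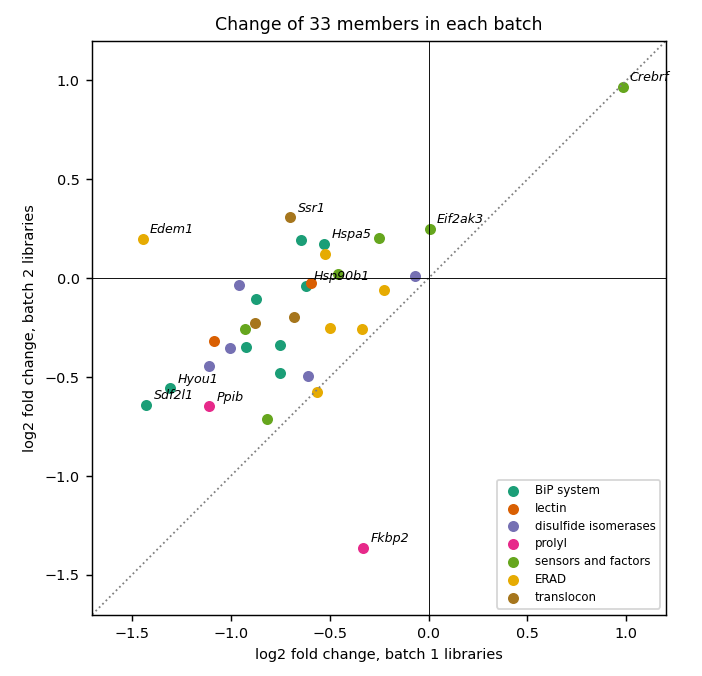
Log2 fold change (25 mM over 5 mM glucose) of 33 genes in the batch 1 libraries (horizontal) against the batch 2 libraries (vertical), coloured by role, with a dotted line where both are equal. The genes lie above the line in 30 cases, Crebrf lies near it at 0.98 and 0.97, and Edem1 and Fkbp2 lie far to either side.

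The 5 mM replicate 1 differed from the other 2 replicates at 5 mM along the GC content of the transcripts. Over 32 members (without Derl3, which was near 0, and Pdia6) the Pearson correlation of GC content with the log2 ratio of that replicate to the mean of the other 2 was -0.85, and over 16089 genes above 1 CPM it was -0.71, as descriptions across genes of the same libraries. The 10 members more than 1.25-fold higher in it had a GC content between 39.5% and 47.2% and included Hspa5, Hsp90b1, Canx, Pdia3, Dnajb9, Ssr1 and Crebrf. Their median log2 fold change was -0.27, and -0.02 without that replicate. The 9 members more than 1.25-fold lower in it had a GC content between 50.7% and 60.3% and included Hyou1, Ppib, Txndc5, Fkbp2, Atf6b and Syvn1. Their median was -0.75, and -0.94 without it. The 13 members between had a median of -0.56, and -0.58 without it. With an offset for GC content and transcript length in all libraries, edgeR called 12 members lower and Crebrf higher at an FDR under 0.05, where it called 7.32% and 6.37% of all genes. That offset brought Syvn1 to -0.0495, Fkbp2 to -0.46, Creld2 to -0.30 and Herpud1 to -0.13, all closer to 0. Also closer to 0 were Hyou1 at -0.59, Sec61a1 at -0.33, Xbp1 at -0.40, Sdf2l1 at -0.71 (FDR 0.0921) and Crebrf at 0.58. Sdf2l1 had -1.04 without the offset and was not among the 12 members called with it. Canx at -0.50, Derl2 at -0.49, Dnajb9 at -0.57 and Hsp90b1 at -0.51 were farther from 0. Without the 5 mM replicate 1, the log2 fold change was -0.0485 for Canx, -0.19 for Pdia3, -0.40 for Edem1 and -0.90 for Syvn1. With the offset, Pdia3 had -0.58 (FDR 0.0870) and Edem1 -0.68 (FDR 0.0699), beside -0.51 and -0.63 in the reported fit. Leaving out the replicate and the offset thus moved Canx, Pdia3, Edem1 and Syvn1 in opposite directions. The deviations of the 5 mM replicate 1 from its group mean correlated at 0.51 over genes with those of the 25 mM replicate 2. Fits without the 5 mM replicate 1 still hold that 25 mM sample, and the part of GC content in its deviations was not tested.

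**Figure D4:**
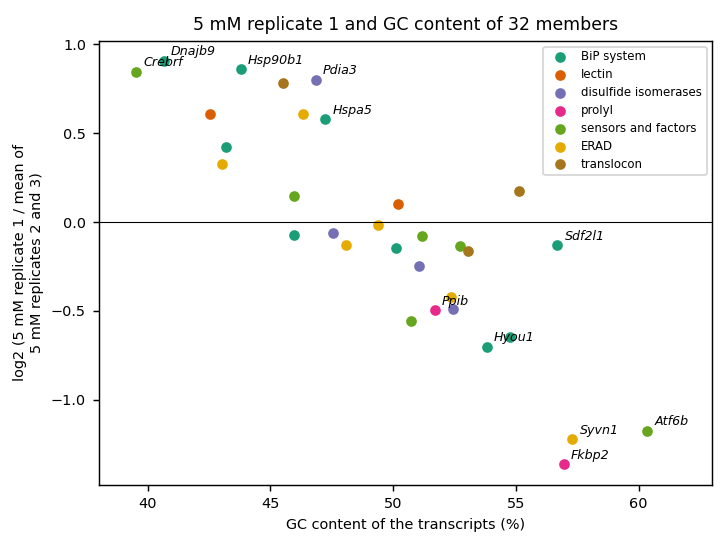
GC content of the transcripts of 32 genes in percent (horizontal) against the log2 ratio of their CPM in the 5 mM replicate 1 to the mean of the 5 mM replicates 2 and 3 (vertical), coloured by role. The points descend from left to right with a Pearson correlation of -0.85, with Dnajb9 and Hsp90b1 at the upper left and Atf6b and Fkbp2 at the lower right.

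Genes of the same pathway outside the list were read with the same test. Of 94 such genes, 93 were tested, and their median was -0.24. A log2 fold change below 0 was found for 72 of them, and for 50.7% of all genes. At an unadjusted p under 0.05, 23 were lower and 2 higher, against 15.5% and 13.2% of all genes. At an FDR under 0.05, where 0.513% of all genes were lower and 1.47% higher, 1 of the 93 was lower and 0 higher (edgeR). That gene was Creb3l2, a membrane-bound relative of ATF6 that drives secretion of matrix proteins, with 91.5, 159 and 145 CPM at 5 mM and 34.8, 46.6 and 56.7 CPM at 25 mM. It fell by 1.52 on the log2 scale (SE 0.26, FDR 0.0384), by 2.45 in batch 1 and by 0.39 in batch 2. P4hb, the founding disulfide isomerase and a subunit of the enzyme that hydroxylates collagen, had 334, 438 and 441 CPM at 5 mM and 170.2, 199 and 271 CPM at 25 mM, a log2 fold change of -0.92 (SE 0.22, FDR 0.0654). Ero1l, the oxidase that recharges it, showed 0.16 (SE 0.17).

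In the PERK arm, the transcription factor Atf4 measured 455, 496 and 469 CPM at 5 mM and 368, 446 and 618 CPM at 25 mM, with a log2 fold change of 0.01 (SE 0.22). Ddit3, the gene of CHOP, measured 30.2, 67.4 and 63.4 CPM at 5 mM and 41.3, 27.0 and 45.8 CPM at 25 mM, with overlapping groups and a log2 fold change of -0.50 (SE 0.33). It overlaps Mars on the opposite strand, and 2 identifiers share its symbol, of which the lower was used. Over the 9 genes of this arm the median was -0.50, with 8 below 0 and 2 lower at an unadjusted p under 0.05. Of all genes, 50.7% were below 0 and 15.5% were lower at that p.

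Chaperones of other compartments also had medians below 0. The median log2 fold change of the 18 cytosolic chaperones was -0.19 and 16 were below 0, while the 8 mitochondrial chaperones had a median of -0.32, with 8 below 0. The most abundant of them, Hspa8 of the cytosol, had -0.49 (SE 0.25). At an unadjusted p under 0.05, 5 of the 18 and 0 of the 8 were lower, where 15.5% of all genes were. Of all genes, 50.7% were below 0. The difference between these lists and the ER genes was not tested.

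Cell type markers were read in the same contrast, and of all lists of markers those of rods had the most calls. The 10 rod markers had a median of 1.09, and 6 of them were higher at an FDR under 0.05 (edgeR), where 1.47% of all genes were. These rod markers summed to 2925 to 5548 CPM at 5 mM and 6383 to 8854 CPM at 25 mM. The 8 endothelial markers had a median of -1.66, with sums of 1158 to 2054 CPM at 5 mM and 434 to 935 CPM at 25 mM, and none was at 0. The 8 pericyte and fibroblast markers had a median of -1.44, with sums of 489 to 555 and 244 to 466 CPM, and Col3a1 among them fell by 2.36 (FDR 0.0326). The 8 microglial markers had a median of -1.14, with sums of 92.7 to 212 and 52.2 to 115 CPM, and the 8 markers of Müller glia a median of -0.19. Of the endothelial, microglial and Müller glia markers 0 passed an FDR of 0.05 (edgeR), while 7, 5 and 2 of 8 were lower at an unadjusted p under 0.05. At that p, 1 marker of Müller glia was higher, and 15.5% of all genes were lower and 13.2% higher. Of the 6 tested markers of the pigment epithelium 0 passed, with a median of -0.37. The endothelial median was -2.73 in batch 1 but -0.48 in batch 2. The same order was seen for the ER genes and for markers of pericytes and fibroblasts (-2.34 and -0.65) and microglia (-1.36 and -0.86). It also held for markers of Müller glia (-0.45 and -0.01) and of the pigment epithelium (-0.32 and -0.16). Cytosolic (-0.48 and 0.00) and mitochondrial chaperones (-0.40 and -0.23) had it too, while the rod markers had 1.16 and 1.15. The sum of the 34 ER genes was 6533 to 8837 CPM at 5 mM and 4517 to 6341 CPM at 25 mM. In bulk RNA, fewer cells of a type and less RNA per cell cannot be told apart, and the part of these cell types in the ER result was not tested.

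**Figure D5:**
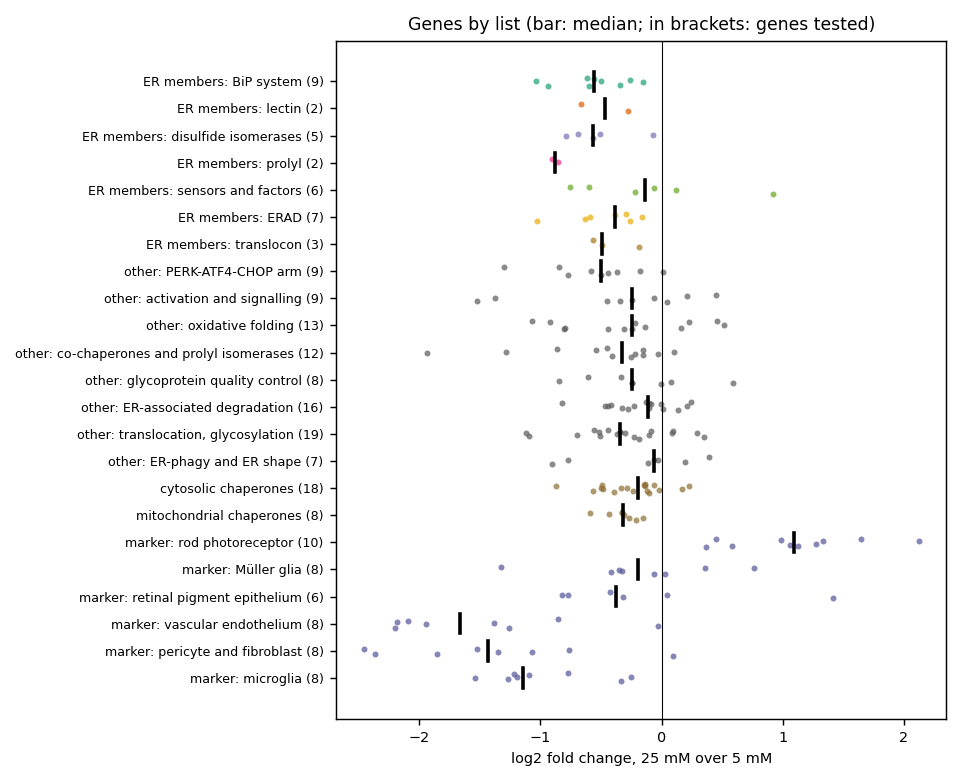
Log2 fold change (25 mM over 5 mM glucose) of each gene tested, by list, with a bar at the median and the number of genes in brackets. The ER roles have medians between -0.88 and -0.14, rod markers stand at 1.09 and endothelial markers at -1.66.

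Transcripts annotated as retained introns were on average a larger part of most ER genes at 25 mM, as they were of most genes. For 19 members with at least 60 counts of both kinds, the log2 ratio of retained-intron to coding transcripts was compared. The ratio was higher on average at 25 mM in 16 of the 19, with a median difference of 0.36, where 84.3% of 7046 genes were higher, with a median of 0.53. In 5 members, Pdia3, Hyou1, Atf6, Sel1l and Sec61a1, all replicates at 25 mM lay above those at 5 mM, where 33.6% of all genes did so, and in 0 members they lay below, where 1.04% did so. Sec61a1 had 16.8%, 9.08% and 12.1% of these counts on retained-intron transcripts at 5 mM and 24.2%, 29.3% and 20.3% at 25 mM. Hyou1 had 7.20%, 3.96% and 5.91% at 5 mM and 13.2%, 10.8% and 8.65% at 25 mM. With 3 replicates against 3, an exact two-sided permutation test cannot give a p below 0.1.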

How the data were processed

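The 12 RNA libraries of retinal explants were made from total RNA with a kit that keeps the strand, and both ends of each fragment were read. Values are as the authors deposited them: a table of estimated counts of genes and another of transcripts, not scaled between libraries, with a column for every technical replicate. The submitters' processing notes name the GRCm38 build; the aligner and the counting tool are not given in the sources used here. Symbols, positions, GC content and transcript types came from GENCODE M21, which named 48714 of 53707 gene identifiers (90.7%), and 0 columns were left unused.

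The estimates of both technical replicates were added up and then rounded. The design had assumed gene counts, and the values proved to be estimates (100% of nonzero gene values were not whole). Counts were filtered with filterByExpr, scaled by TMM and tested by quasi-likelihood in edgeR 4.0.16 (set to its version 3 behaviour) under R 4.3.3. No replicate block was used, and p-values of 21061 genes were adjusted by Benjamini-Hochberg. TPM was computed from the transcript counts, and transcript-based values were left out where gene and transcript tables differed by more than 1.5-fold. Retained-intron ratios used a pseudocount of 0.5. Promoters came from RefSeq (GRCm38.p6).

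The genes named were all 34 members, with every replicate given for those of lowest p, the sensors and the most abundant. Of other pathway genes, they were Atf4, Ddit3, P4hb, Ero1l and those with an FDR under 0.05. Up to 3 by p were added from the lists of co-chaperones and prolyl isomerases and of activation and signalling only. Of the comparison and marker lists, they were those with an FDR under 0.05 or the most abundant. The members and all lists were chosen with earlier results of these data known, so that no list was tested. Alternatives covered other scalings (RLE, library totals), DESeq2 1.42.0, limma-voom (limma 3.58.1), edgeR's version 4 method, other filters, the 12 libraries apart, each batch, a replicate block, an offset for GC content and length, transcript sums and each replicate left out. Library totals of 14815285 to 36692484 counts limit the counting error only, since amplified reads without molecular identifiers are not independent molecules, and the spread between replicates (common biological coefficient of variation 0.297) was the larger error.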

Additional observations from a re-analysis of the deposited data

Results flagged for a closer look

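Within each group of 6 libraries, 7 of 68 sets of values for a member held a library whose gap to its nearest neighbour exceeded the 95% critical value of Dixon's test, where chance gives about 3.4 for independent values, which technical replicates of the same sample are not. At 5 mM glucose, the first technical replicate of biological replicate 1 was highest for Pdia3 with 1234 CPM, for Dnajc3 with 201 CPM and for Ssr1 with 484 CPM, and lowest for Herpud1 with 41.3 CPM. Dnajb11 was highest in the first technical replicate of the 5 mM replicate 2 with 119.7 CPM, and Atf6 was lowest in the second technical replicate of the same sample with 104 CPM. At 25 mM glucose, Eif2ak3 was highest in the second technical replicate of replicate 1 with 71.9 CPM. Of these 7 values, 4 came from the first technical replicate of the 5 mM replicate 1.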

How the results depend on the processing

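The median of the 34 members stayed below 0 under every alternative run, between -0.41 and -0.60 with 1 replicate left out and at -0.23 in batch 2. The counts of single calls moved. Members lower at an FDR under 0.05 numbered 0 as reported, 7 with DESeq2, 4 with no filter beyond a count above 0 (3.47% of all genes were), 12 with the 12 libraries apart (7.86%), 12 in batch 1, 12 with the offset for GC content and length, and 0 to 12 with a replicate left out, the 12 without the 5 mM replicate 1. The fit of the 12 libraries counts technical replicates as separate samples, so that its p-values are too small. Hyou1, Pdia4 and Ppib were among those called in each of these settings with calls. Members higher numbered 0 as reported and 1 (Crebrf) with DESeq2, no filter, the 12 libraries apart and the GC offset, and 0 to 1 with a replicate left out. Other pathway genes called lower or higher numbered 1 as reported, where 0.513% of all genes were lower and 1.47% higher. They numbered 12 with DESeq2 (9.54% and 7.03% of all genes) and 7 with no filter (3.47% and 2.16%). With the 12 libraries apart they numbered 11 (7.86% and 7.73%), and in batch 1 12 (10.1% and 7.16%). In batch 2 they numbered 0 (0% and 0%), and with the GC offset 14 (7.32% and 6.37%). With a replicate left out they numbered 0 to 32, the 32 without the 5 mM replicate 1 (14.9% and 11.7%).

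The replicate numbers are shared by the groups, but same-numbered samples did not deviate together (correlations -0.01, -0.45 and 0.28), and not every sample correlated best with its own number. The highest correlation, 0.51, was that of the 5 mM replicate 1 with the 25 mM replicate 2. With a replicate block edgeR called 1 member (Ppib) lower and 3 other pathway genes lower or higher. It called 2.78% of all genes lower and 1.92% higher. With the block and the GC offset it called 9 members lower and 1 higher, where 9.82% and 6.37% of all genes were, and 18 other pathway genes. Members with separate groups numbered 5 in batch 2, beside 18 (7.91% and 15.8% of all genes).

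The median retained-intron difference was 0.77 in batch 1 and 0.17 in batch 2. Of 778 values of single members under an alternative, 678 kept their direction and side of the threshold, 75 newly passed it and 25 changed sign. In batch 2 the sign changed for Hspa5 (0.17), Dnajb9 (0.19), Atf6 (0.0206), Ern1 (0.20), Edem1 (0.20), Derl2 (0.12), Txndc11 (0.00884) and Ssr1 (0.31). It changed with the GC offset for Ern1 (0.0729) and Txndc11 (0.0399), with the block and the offset for Ern1 (0.0884) and Txndc11 (0.0447), and with transcript sums for Pdia6 (0.0773), whose main transcript has few counts there. With a replicate left out, values ran from -0.29 to 0.0787 for Hspa5, -0.52 to 0.00223 for Hsp90b1, -0.46 to 0.11 for Dnajb9, -0.36 to 0.12 for Ssr1, -0.22 to 0.0315 for Ern1 and -0.15 to 0.0367 for Txndc11. In alternatives added after seeing the data, the second technical replicate alone gave 0.0213 for Ssr1 (5 mM replicate 1) and 0.0167 for Hspa5 (25 mM replicate 2). Other pathway genes called there numbered 0 and 0, where 0% of all genes were called. The causes of these changes were not tested.

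With 3 replicates a group, differences the size of those of Hspa5 or Hsp90b1 lay within 1 or 2 standard errors and could not be told from 0.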

Other observations

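Beside Creb3l2, values are given for pathway genes outside the 34 with the lowest p in certain lists only. These lists were that of co-chaperones and prolyl isomerases and that of activation and signalling. Ppic (cyclophilin C) had a log2 fold change of -1.93 (SE 0.43, FDR 0.0584), Fkbp9 of -0.86 (SE 0.24, FDR 0.0798) and Fkbp10, a chaperone of procollagen, of -1.28 (SE 0.40, FDR 0.0960). Creb3l1, the relative of Creb3l2 that drives collagen genes in bone, had -1.37 (SE 0.34, FDR 0.0671). All 4 missed an FDR of 0.05 in edgeR, and in Ppic, Fkbp9 and Creb3l1 the replicates at 25 mM all lay below those at 5 mM. Rtcb, the ligase that joins the exons of Xbp1 after IRE1 has cut them, had -0.45 (SE 0.17, FDR 0.140). For further lists, counts at an unadjusted p under 0.05 are given. Of 19 genes of translocation, signal peptidase and N-glycosylation 6 were lower, and of 13 of oxidative folding 4 were lower and 1 higher. Of 16 other genes of ER-associated degradation 2 were lower, and of 8 of glycoprotein folding 1 was lower and 1 higher. Of 7 of ER-phagy and ER shape 1 was lower. Of all genes, 15.5% were lower and 13.2% higher.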
